A study of Mus musculus with 6 samples.

Results

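Long noncoding RNA (lncRNA) genes whose ends lie away from protein-coding genes were examined for peaks of NUP214, a nucleoporin of the nuclear pore complex, in mouse leukemia stem cells and normal hematopoietic stem cells. The genes were taken from the RefSeq table of GRCm38.p6, the assembly behind the mm10 build of the peak lists. A gene was included when its biotype was lncRNA, it lay on chromosomes 1 to 19, X or Y, and both of its ends were more than 5 kb from any protein-coding gene span. This rule, which uses no peak, found 6529 of the 12727 lncRNA genes on these chromosomes, called isolated below. Since it looks at gene ends, 44 of them (0.674%) enclose a coding gene, among them 6, 2 and 1 of the genes in the 3 sets of called genes described below. Without these 44, an alternative added after the data were seen, all 19 values recomputed kept their direction, their side of 0.05 and, for counts, a size within 1.5 times. The comparisons between groups among them could not reach 0.05 in any case, so only their direction could change. The other 6198 lncRNA genes lie within 5 kb of a coding gene or overlap it and served for comparison, as did 21887 protein-coding genes. A gene was counted as called in a library when a peak overlapped its span or the 1 kb around either end by at least 1 bp.

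CUT&Tag, in which an antibody brings a transposase to its target so that the DNA beside it is cut and tagged, was carried out with an antibody against NUP214 on sorted bone marrow cells. The 6 libraries fell into 3 groups of 2. Control leukemia stem cells (LSCs) were lineage-negative, Sca-1-negative cells positive for c-Kit, CD16/32 and CD34, sorted from Nup214fl/+ animals in which the MLL-AF9 fusion drove an acute myeloid leukemia. Nup214-HET LSCs passed the same gate and came from Nup214fl/+,Tie2-Cre mice with the same leukemia, so that the floxed allele is open to a Cre recombinase active in endothelial and blood cells. The normal hematopoietic stem cells (HSCs), gated as CD48-CD150+LSK, came from Nup214fl/+ mice without a stated leukemia, and all 3 groups therefore carried 1 floxed Nup214 allele. The cell type entry of the labels names hematopoietic stem cells for every library, so the sample titles decided the groups. Whether replicate libraries come from separate animals is not stated, so p-values below measure a spread that may be technical only. No library is labelled as having had no antibody, and a peak list holds no expression value by which the sorted cell types could be checked.

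LncRNAs are transcribed and mostly processed like messenger RNAs but encode no known protein. Some, such as Malat1 and Neat1, organise bodies inside the nucleus, some act on the gene or chromosome from which they are transcribed, as Xist does on the X chromosome, and others are carriers from whose introns small nucleolar RNAs (snoRNAs) or microRNAs are cut. For most numbered genes of the RefSeq table no function is known. NUP214 sits on the cytoplasmic face of the pore, where it takes part in the export of RNA and protein, and it is known in human leukemia from fusions with SET and DEK.

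The peak lists differed in length. On chromosomes 1 to 19, X and Y they held 25437 and 10525 peaks in control LSC libraries 1 and 2, 5452 and 4681 in Nup214-HET LSC libraries 1 and 2, and 1045 and 634 in HSC libraries 1 and 2. Values for the 6 libraries follow this order throughout. The median peak width was 274, 212, 435, 454, 286 and 286 bp. The sources used here give no read totals, so the depth behind the lists is unknown, and intervals and counts cover counting error only.

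Of the promoters that carried a peak in both control LSC libraries, 8 are printed as examples of the sequence at a called start. RefSeq promoter windows of 300 bases, read 5′ to 3′ around an annotated start, were on hand for 4945 of the 6529 genes (75.7%), with 6018 windows in all. A peak in both control LSC libraries overlapped 66 windows of 62 genes. Capitals mark matches, on either strand, to the motifs searched. These were the ETS motif CCGGAAG, the PU.1 motif GAGGAAG, the RUNX motif TGTGGTT, the SP/KLF motif GGGCGG, the NF-Y motif CCAAT, the E-box CACGTG, the AP-1 motif TGANTCA, the GATA motif AGATAA and the TATA box TATAAA. Overlapping matches run together.
Snhg5 (chr9:88522848-88523147, minus strand): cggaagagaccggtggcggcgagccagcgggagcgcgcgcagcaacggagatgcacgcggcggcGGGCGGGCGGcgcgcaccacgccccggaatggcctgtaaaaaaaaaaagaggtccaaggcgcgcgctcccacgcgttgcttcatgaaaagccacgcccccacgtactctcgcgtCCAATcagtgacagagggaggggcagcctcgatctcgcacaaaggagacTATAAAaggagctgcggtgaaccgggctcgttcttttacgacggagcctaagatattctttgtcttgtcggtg
Dancr (chr5:74092810-74093109, plus strand): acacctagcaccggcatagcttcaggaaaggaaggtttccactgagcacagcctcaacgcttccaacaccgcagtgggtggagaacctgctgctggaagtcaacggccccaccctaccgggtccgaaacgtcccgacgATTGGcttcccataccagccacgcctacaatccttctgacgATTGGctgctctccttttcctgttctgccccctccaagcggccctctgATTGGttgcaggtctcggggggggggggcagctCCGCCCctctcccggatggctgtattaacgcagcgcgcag
Jpx (chrX:103493308-103493607, plus strand): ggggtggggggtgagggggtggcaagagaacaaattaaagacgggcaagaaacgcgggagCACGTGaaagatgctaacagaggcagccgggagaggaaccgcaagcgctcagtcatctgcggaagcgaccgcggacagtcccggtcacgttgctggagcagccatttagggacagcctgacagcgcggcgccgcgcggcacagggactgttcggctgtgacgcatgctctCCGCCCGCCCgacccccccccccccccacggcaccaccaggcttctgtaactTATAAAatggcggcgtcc
1700096K18Rik (chr5:25529768-25530067, plus strand): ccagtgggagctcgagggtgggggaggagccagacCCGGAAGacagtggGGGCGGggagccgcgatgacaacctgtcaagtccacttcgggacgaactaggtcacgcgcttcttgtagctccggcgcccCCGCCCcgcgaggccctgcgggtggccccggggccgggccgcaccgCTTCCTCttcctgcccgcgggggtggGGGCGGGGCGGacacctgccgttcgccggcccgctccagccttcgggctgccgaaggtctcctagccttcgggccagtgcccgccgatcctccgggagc
D130051D11Rik (chr15:85634346-85634645, plus strand): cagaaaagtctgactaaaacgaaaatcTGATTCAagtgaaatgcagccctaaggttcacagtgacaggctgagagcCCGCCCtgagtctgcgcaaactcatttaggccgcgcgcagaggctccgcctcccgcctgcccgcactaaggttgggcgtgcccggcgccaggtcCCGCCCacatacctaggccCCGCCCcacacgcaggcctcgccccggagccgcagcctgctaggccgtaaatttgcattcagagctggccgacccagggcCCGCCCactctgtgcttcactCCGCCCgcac
B330016D10Rik (chr4:141545912-141546211, plus strand): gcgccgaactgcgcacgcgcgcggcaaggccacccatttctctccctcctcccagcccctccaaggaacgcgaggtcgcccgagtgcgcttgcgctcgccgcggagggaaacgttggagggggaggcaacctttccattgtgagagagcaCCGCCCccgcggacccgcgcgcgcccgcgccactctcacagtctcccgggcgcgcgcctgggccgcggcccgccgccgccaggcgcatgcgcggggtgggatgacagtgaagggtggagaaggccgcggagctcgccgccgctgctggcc
5730405O15Rik (chrX:13041765-13042064, plus strand): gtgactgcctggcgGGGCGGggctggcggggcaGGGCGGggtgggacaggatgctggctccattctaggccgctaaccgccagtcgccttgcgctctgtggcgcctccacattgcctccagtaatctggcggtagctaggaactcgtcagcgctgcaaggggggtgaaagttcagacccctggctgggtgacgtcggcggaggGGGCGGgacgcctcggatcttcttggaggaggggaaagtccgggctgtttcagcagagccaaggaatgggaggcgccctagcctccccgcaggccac
Mirt1 (chr19:53464747-53465046, minus strand): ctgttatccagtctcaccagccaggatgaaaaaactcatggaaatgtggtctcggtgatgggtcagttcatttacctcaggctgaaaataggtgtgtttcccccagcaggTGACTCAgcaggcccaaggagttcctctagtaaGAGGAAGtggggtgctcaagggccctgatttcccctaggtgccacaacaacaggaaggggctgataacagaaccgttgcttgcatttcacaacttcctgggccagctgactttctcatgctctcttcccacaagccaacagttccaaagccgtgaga

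Snhg5 and Dancr are host genes of snoRNAs, and Jpx encodes an activator of Xist. The first 7 windows hold at least 18 CpG dinucleotides each, and all 7 hold the SP/KLF motif. The Mirt1 window, with 3 CpG and no SP/KLF motif, is printed as a contrast with the same call. The printed windows are not typical of the 66 called ones, which had a median of 11 CpG and held the motif in 47.0% of cases. A motif match describes letters and is not evidence of a bound factor.

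Over the 66 called windows the median GC content was 55.8% and the median number of CpG dinucleotides was 11. Across all 6018 windows of these genes the medians were 46.7% and 3, and across the 32851 windows of the whole promoter table, coding genes included, they were 52.7% and 7. The SP/KLF motif was present in 47.0% of the called windows, in 8.71% of all windows of these genes and in 35.7% of the whole table. The called windows of these isolated genes thus had a base composition nearer to that of promoters in general than to that of their own class.

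Other motifs also differed in frequency. The RUNX motif occurred in 18.2% of the called windows against 6.75% of all windows of these genes and 5.27% of the table, and the E-box in 18.2% against 5.43% and 7.15%. The ETS motif occurred in 10.6% against 2.73% and 8.86%, and the PU.1 motif in 19.7% against 13.0% and 13.6%. NF-Y was the opposite case, at 25.8% of the called windows against 38.1% and 37.4%, and the GATA motif stood at 10.6% against 16.3% and 11.2%. These shares are descriptions without a test, over windows that also differ in GC content as given above. Only 11 windows of 9 genes had a peak in both Nup214-HET LSC libraries, with a median GC content of 60.7% and 16 CpG, and none had a peak in both HSC libraries. Some windows overlap each other, so that a promoter can count more than once. Those of Gm31619 among the 11 start at 167589432, 167589433 and 167589434, and Gm33195 and Gm41331 have overlapping windows with the RUNX motif among the 66.

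Of the 6529 isolated lncRNA genes, 1481 (22.7%) were called in at least 1 library and 5048 (77.3%) in none. Control LSC libraries called 1082 and 467 of them, Nup214-HET LSC libraries 256 and 226, and HSC libraries 58 and 47. These are 16.6%, 7.15%, 3.92%, 3.46%, 0.888% and 0.720% of the genes. Among all 49943 RefSeq genes the called shares were 32.1%, 17.4%, 9.66%, 8.27%, 1.43% and 0.687%, so the isolated lncRNA genes lay below the background in 5 lists and near it in HSC library 2. The Wilson 95% intervals of the shares were 15.7% to 17.5% and 6.55% to 7.80% in control LSCs, 3.48% to 4.42% and 3.04% to 3.93% in Nup214-HET LSCs, and 0.688% to 1.15% and 0.542% to 0.956% in HSCs. A gene called once was the usual case, with 1036 genes called in a single library, while 9 were called in all 6.

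The number of called genes per library was 774.5 ± 435 (SD, n = 2) for control LSCs, 241 ± 21.2 for Nup214-HET LSCs and 52.5 ± 7.78 for HSCs, and no groups overlapped. In log2 units the control LSC mean was 1.56 above the Nup214-HET mean (2.96-fold) and 3.77 above the HSC mean (13.6-fold), and the Nup214-HET mean was 2.2 above the HSC mean (4.61-fold). Each of these 3 differences had p = 0.33 by a two-sided exact permutation test, the smallest value that 2 against 2 libraries can give, and an adjusted p of 0.375 over the 9 comparisons between groups (Benjamini-Hochberg). The order followed the length of the lists and turned around when each list was cut to its 634 strongest peaks by q value. The called genes then numbered 11 and 10 for control LSCs, 18 and 15 with the Nup214-HET genotype and 44 and 47 for HSCs. The gap between the control LSC libraries, in a group of the same label, was itself 1082 against 467.

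Peaks at isolated lncRNA genes made up nearly the same share of every LSC list. Control LSC libraries had 5.30% and 4.67% of their peaks there, Nup214-HET libraries 4.62% and 4.79%, and HSC libraries 5.65% and 7.41%. The genes with their 1 kb flanks cover 139.4 Mb, which is 5.12% of the chromosomes. By their summits, the peaks of 3 libraries fell on this space at shares whose Wilson 95% intervals contain 5.12%. The intervals of control LSC library 2 (4.23% to 5.04%) and Nup214-HET library 1 (3.99% to 5.10%) lie below it and that of HSC library 2 (5.48% to 9.54%) above it. The control LSC mean exceeded the Nup214-HET mean by 0.280 percentage points (p = 0.67, exact permutation test), and without control LSC library 1 the difference was -0.0386. The difference was -1.55 points from HSCs for control LSCs and -1.83 points for Nup214-HET LSCs, HSCs being higher, each with p = 0.33 and an adjusted p of 0.375 (exact permutation test). At end windows alone these 2 differences reversed, with HSCs 0.501 points below control LSCs and 0.0988 points below Nup214-HET LSCs.

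**Figure D1:**
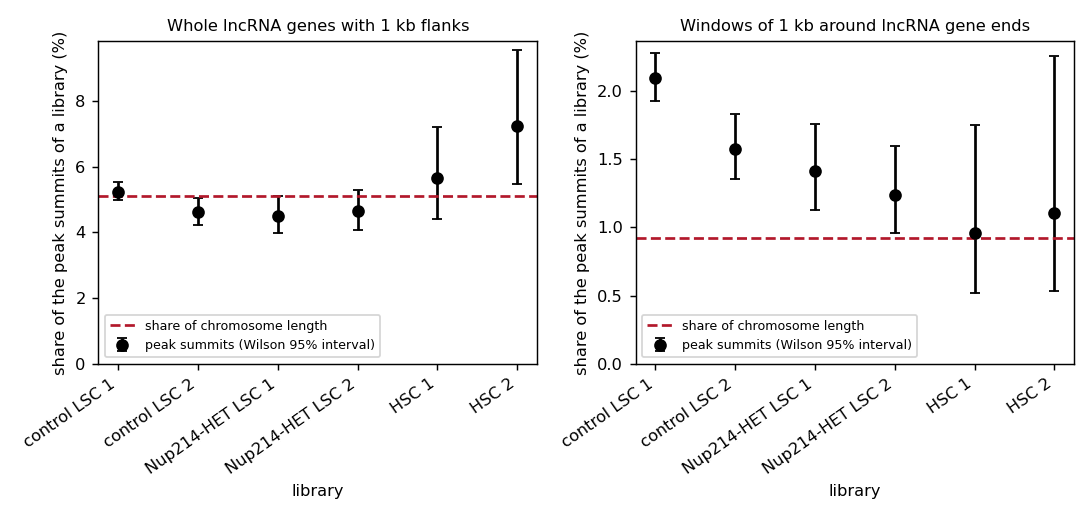
Share of the peak summits of each library (y axis, percent) that fell on isolated lncRNA genes with 1 kb flanks (left) and on the 1 kb windows around their ends (right), with Wilson 95% intervals. Dashed lines give the share of chromosome length that the same space covers, 5.12% and 0.920%, and the right panel shows the LSC libraries at 1.24% to 2.10%, above the line.

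Within these genes the LSC summits were gathered at the ends, while for the few HSC summits a gathering was not detectable. The end windows cover 0.920% of the chromosomes and held 2.10% and 1.58% of the control LSC summits and 1.41% and 1.24% of the Nup214-HET LSC summits, all with intervals above 0.920%. In HSCs they held 0.957% and 1.10%, with intervals of 0.521% to 1.75% and 0.536% to 2.26%. The interior, 4.20% of the chromosomes, held 3.15%, 3.04%, 3.10% and 3.40% of the LSC summits and 4.69% and 6.15% of the HSC summits. The interior share was thus under the length share in all 4 LSC libraries and over it in both HSC libraries, though the interval of HSC library 1 (3.56% to 6.15%) contains it.

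Where RefSeq gives the strand, the start could be told from the other end. Start windows, 0.358% of the chromosomes, held 1.27%, 0.969%, 0.789% and 0.726% of the LSC summits, which is 3.55, 2.71, 2.21 and 2.03 times their share of length. Windows at the other end, 0.361% of the chromosomes, held 0.491%, 0.314%, 0.348% and 0.363%, or 1.36, 0.868, 0.965 and 1.01 times their share. In HSC libraries the start windows held 3 and 4 summits, too few to place them above or below the length share.

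Counted by gene, control LSC libraries had a peak within 1 kb of the start at 6.94% and 2.31% of the stranded genes, Nup214-HET libraries at 1.05% and 0.829%, and HSC libraries at 0.101% and 0.142%. At the other end the figures were 2.89%, 0.849%, 0.465%, 0.445%, 0.142% and 0.0404%. The start was the more often called end in 5 of 6 libraries, HSC library 1 being the exception. The mean difference was 1.09 percentage points with an SD of 1.54 over the 6 libraries, which a two-sided exact sign-flip permutation test put at p = 0.0625 (adjusted p = 0.0625 over 3 comparisons of this kind, smallest possible p 0.031).

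A minority of summits lay within 1 kb of a start. Peaks lying wholly more than 1 kb outside a gene were left out by the rule for a call, so these shares and distances hold only for peaks at the genes. Of the peaks at stranded genes, control LSC libraries had 31.9% and 28.2% with the summit within 1 kb of an annotated start, Nup214-HET libraries 22.7% and 20.9%, and HSC libraries 5.88% and 15.8%. The median distance was 4106, 4357, 4950 and 7670 bp in LSCs and 12900 and 11889.5 bp in HSCs. Peaks near a start also ranked higher in the LSC lists than the other peaks at these genes, as shown by the percentile of the authors' fold enrichment within its own list (100 is the strongest peak). The median percentile near a start was 49.2, 50.3, 45.1 and 53.5, against 36.7, 35.9, 38.3 and 38.7 elsewhere in the genes. In HSCs only 3 and 6 peaks lay near a start, with medians of 55.8 and 39.2 against 61.9 and 67.9.

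**Figure D2:**
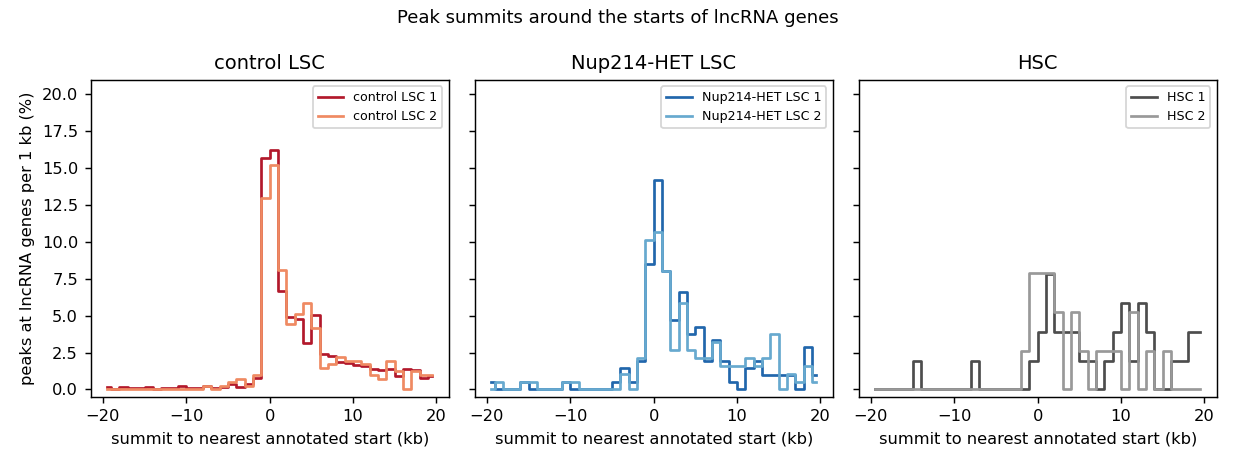
Peaks at isolated lncRNA genes (y axis, percent of the peaks at stranded genes of a library per 1 kb) by the distance of the summit from the nearest annotated start (x axis, kb, negative values upstream), in 3 panels for the 3 groups with 1 line per library. The LSC lines rise at the start, where 20.9% to 31.9% of the peaks lie within 1 kb, and the HSC lines rest on 51 and 38 peak and gene pairs. A peak enters only if it overlaps a span or its 1 kb flanks, so the low values farther than 1 kb upstream largely follow from this selection.

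At equal windows of 1 kb around both ends, isolated lncRNA genes were called less often than either other class of genes in 5 of 6 libraries. Control LSC libraries called 8.73% and 2.85% of them there, Nup214-HET libraries 1.39% and 1.18%, and HSC libraries 0.184% and 0.153%. Protein-coding genes stood at 43.3%, 21.9%, 11.5%, 9.49%, 1.04% and 0.0868%, and lncRNA genes near coding genes at 25.2%, 11.5%, 5.79%, 4.81%, 0.516% and 0.0968%. The background over all RefSeq genes was 24.7%, 12.1%, 6.36%, 5.3%, 0.603% and 0.0941%. The coding share was 4.96, 7.70, 8.27, 8.04 and 5.64 times the isolated lncRNA share in the first 5 libraries and 0.567 times it in HSC library 2.

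The difference from coding genes averaged -12.2 percentage points (SD 13.0, n = 6) and that from lncRNA genes near coding genes -5.57 points (SD 6.19). Each was negative in 5 of 6 libraries, with p = 0.0625 by the exact sign-flip permutation test and the same adjusted p over 3 comparisons. HSC library 2 alone had the opposite sign, at 0.0664 and 0.0564 points, where 10 isolated lncRNA genes were called at an end. In points, the gap to coding genes was wider in control LSCs than in Nup214-HET LSCs (difference of -17.6) or HSCs (-26.5). It was also wider in Nup214-HET LSCs than in HSCs (-8.83). Each difference had p = 0.33 and an adjusted p of 0.375 by the exact permutation test. The ratio of coding to isolated share was instead higher for the Nup214-HET libraries (8.27, 8.04) than for the control LSC libraries (4.96, 7.70). HSC libraries had ratios of 5.64 and 0.567. When every list was cut to 634 peaks, the group differences shrank to -0.222, -2.34 and -2.12 points. The mean gaps over the 6 libraries were then -1.70 points (coding genes) and -0.864 points (lncRNA genes near them). No group comparison could reach 0.05 with 2 libraries a group.

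**Figure D3:**
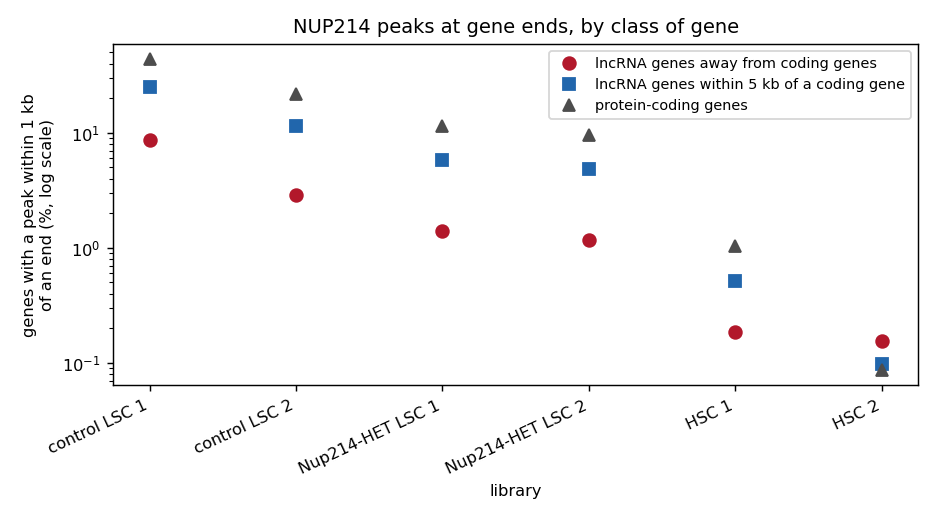
Share of genes with a peak within 1 kb of an end (y axis, percent, log scale) in each library (x axis) for isolated lncRNA genes (circles), lncRNA genes within 5 kb of a coding gene (squares) and protein-coding genes (triangles). The circles lie lowest in 5 libraries, from 8.73% down to 0.184%, and highest in HSC library 2, at 0.153%.

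Peaks at isolated lncRNA genes, taken over the span and windows, were also weaker within the LSC lists than peaks at coding gene ends. Their median percentile of fold was 40.8 and 40.3 for control LSCs and 38.3 and 42.1 for Nup214-HET LSCs, against 70.7, 68.9, 67.4 and 65.9 at coding gene ends. In HSCs the medians were 59.0 and 62.1, against 52.5 and 61.4. The mean difference over the 6 libraries was -17.4 with an SD of 16.5. With the end windows alone for the isolated lncRNA genes as well, it was -14.5. In lists cut to 634 peaks the mean difference was 1.85, with the peaks at isolated lncRNA genes the higher in 5 libraries and the lower in HSC library 1 (65.3 against 66.8). The medians of the 4 LSC libraries then rested on 11, 10, 18 and 15 peaks, and the list of HSC library 2 is the uncut one.

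Within the class, calls at the ends were rarer the farther a gene lay from coding genes. In control LSC library 1 the share of genes called at an end was 13.0% at 5 to 10 kb from the nearest coding gene, 12% at 10 to 25 kb, 11.3% at 25 to 50 kb, 8.08% at 50 to 100 kb, 6.10% at 100 to 250 kb and 1.34% beyond 250 kb. Control LSC library 2 went from 4.84% in the nearest class to 0.336% in the farthest, and the Nup214-HET LSC libraries from 2.23% and 1.96% to 0.336% and 0.224%. The HSC libraries had no call at an end among the 764 genes at 5 to 10 kb, which allows a share of up to 0.393%, and their highest shares, 0.449% and 0.359%, at 50 to 100 kb. Genes farther away were longer, with a median of 7101 bp in the nearest class and 14987 bp in the farthest.

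**Figure D4:**
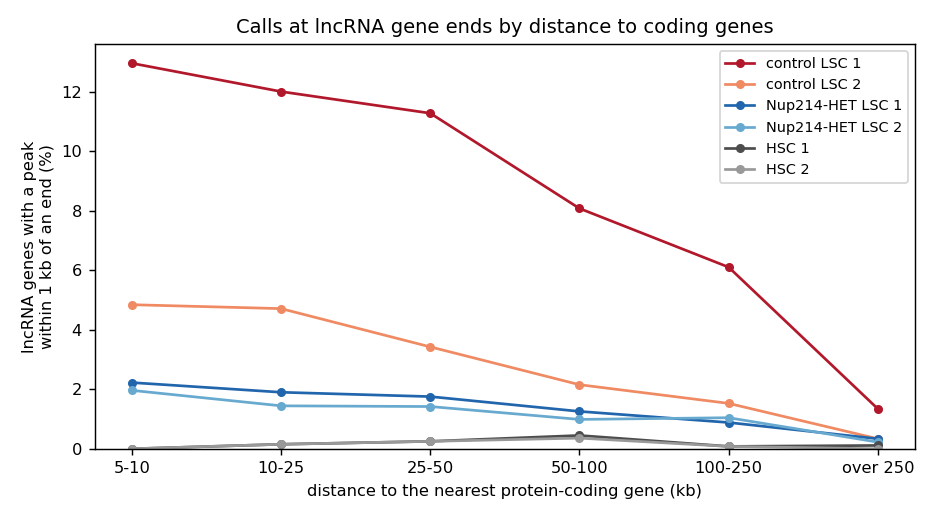
Share of isolated lncRNA genes with a peak within 1 kb of an end (y axis, percent) by distance of the gene from the nearest protein-coding gene (x axis, classes in kb), with 1 line per library. Control LSC library 1 falls from 13.0% to 1.34%, the other LSC libraries fall to at most 0.336%, and the HSC lines stay at or under 0.449%.

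The limit of 5 kb set no sharp step in every list. Genes at 4 to 5 kb (165, left out) and at 5 to 6 kb (161, kept) were called, over the span and windows, at 26.1% and 18.6% in control LSC library 1 and at 11.5% and 8.07% in library 2. In Nup214-HET LSCs the figures were 3.64% and 3.73% in library 1 and 1.82% and 3.73% in library 2. In HSCs they were 1.21% and 0.621%, and 0.606% and 0.621%.

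Calls over the whole gene rose with gene length in every library. Over the span and windows, the 1633 shortest genes (up to 3.932 kb) were called at 12.2%, 4.29%, 1.65%, 1.65%, 0.122% and, in HSC library 2, by none of them (a count of 0 that allows up to 0.184%), and the 1632 longest (over 21.436 kb) at 22.4%, 12.2%, 7.60%, 7.23%, 2.08% and 2.08%. At the ends alone the control LSC shares fell with length, from 11.6% to 5.39% and from 3.98% to 1.65%. Nup214-HET LSC shares at the ends went from 1.53% to 0.919% and from 1.59% to 0.674%, with 1.78% and 1.59% in the next length class (3.932 to 9.173 kb). In HSCs they were 0.0612% and 0% (again allowing up to 0.184%) for the shortest genes and 0.123% and 0.184% for the longest, on at most 5 called genes in any length class. Many calls rested on peaks inside the span alone, away from both ends. These were 47.3% and 60.2% of the called genes of the control LSC libraries, 64.5% and 65.9% of those of the Nup214-HET libraries, and 79.3% and 78.7% of those of the HSC libraries. Over all RefSeq genes, 16051, 8666, 4826, 4131, 713 and 343 were called, of which 12329, 6041, 3177, 2645, 301 and 47 at an end. Calls inside the span alone were thus less frequent over all genes in the first 5 libraries and more frequent in HSC library 2.

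Genes with a given name were in the control LSC set more often than numbered ones. Of 163 genes whose symbol is neither a Gm number, a Rik clone name nor a LOC number, 19 (11.7%) were called in both control LSC libraries, against 6.13% of 848 Rik genes, 4.33% of 5379 Gm genes and 2.88% of 139 LOC genes. In HSCs the order was another, with 0.613% and 0% (a count of 0 that allows up to 1.84%) of the named genes called against 0.818% and 0.688% of the Gm genes and 1.30% and 1.06% of the Rik genes. Genes whose span holds a snoRNA gene were in this control LSC set in 7 of 59 cases (11.9%), those holding a microRNA gene in 4 of 49 (8.16%), and those holding a tRNA gene in 5 of 22 (22.7%). The share over all the genes was 4.72%, and the hosts of snoRNAs were longer, with a median of 32289 bp against 9108 bp for the rest. Genes holding a microRNA gene were longer too, at 20280 bp against 9108 bp. Those holding a tRNA gene were at 7922 bp against 9195 bp. The snoRNA holders were 5730522E02Rik, Snhg17, Gm34687, Dancr, Gm34264, Snhg5 and 9430037G07Rik. The microRNA holders were Ftx, which carries Mir421, Mir374b and Mir374c, and 5730522E02Rik, 2610307P16Rik and Gm10505. The tRNA holders were Gm11205, 4930586N03Rik, 4930555B11Rik, Gm39918 and 2310047D07Rik. Genes called in both Nup214-HET LSC libraries (0.95% of all the isolated genes) included 1 snoRNA holder and 0 microRNA or tRNA holders. Those called in both HSC libraries (0.260%) included 0 of each.

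The genes called in both libraries of a group formed the group's set. The control LSC set had 308 genes (4.72% of the 6529), the Nup214-HET LSC set 62 (0.95%) and the HSC set 17 (0.260%). Over all RefSeq genes the same rule called 15.7%, 4.97% and 0.254%, so the isolated lncRNA genes were below the background in both LSC groups and near it in HSCs. In 254, 52 and 17 of the genes, peaks of both libraries overlapped each other. Since spans of neighbouring genes can overlap and a gene can hold several peaks, the sets also count by region, with 256, 51 and 18 distinct regions called in both libraries. With a single library as the criterion the control LSC set would have had 467 genes without library 1 and 1082 without library 2, the Nup214-HET set 226 or 256, and the HSC set 47 or 58.

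Of the 308 genes in the control LSC set, 43 were also in the Nup214-HET LSC set, which is 14.0% of the control LSC set and 69.4% of the Nup214-HET set. Over all RefSeq genes the same shares were 26.2% and 82.8%. Of the isolated lncRNA genes 0.659% were in both sets, against 4.12% of all RefSeq genes. Another 63 were called in a single Nup214-HET library, and 202 in none. These 202 are 65.6% of the control LSC set and 3.09% of the isolated lncRNA genes, against 49.5% of the control LSC set and 7.79% of the genes over all RefSeq genes. The share of a control LSC set with no Nup214-HET call was 47.6% for coding genes and 57.2% for lncRNA genes near them. Without control LSC library 1 the isolated genes with no Nup214-HET call numbered 340, and without library 2 they numbered 889. Cutting the control LSC lists to the mean Nup214-HET length of 5066 peaks, a comparison added after the data were seen, left 97 genes in the control LSC set, of which 30 were shared and 50 (51.5%) had no Nup214-HET call. The shares for coding genes and lncRNA genes near them were then 34.1% and 38.4%.

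The genes with no Nup214-HET call ranked lower in the control LSC lists than the shared ones. In control LSC library 1 the strongest peak of a gene had a median percentile of 82.1 for the 43 shared genes, 71.0 for the 63 called in a single Nup214-HET library and 72.4 for the 202 called in none. In library 2 the medians were 73.6, 50.6 and 48.8. These ranks come from the lists that define the control LSC set and are given as a description.

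Among the genes on the prepared lists of known lncRNAs, Malat1 and Neat1 were in both LSC sets. Malat1, the abundant RNA of nuclear speckles, lies on chromosome 19 (5795690 to 5802672, minus strand). Its strongest peak had a fold of 9.81 and 8.64 for control LSCs and 6.25 and 4.64 for Nup214-HET LSCs, at percentiles of 80.1, 83.1, 73.3 and 39.5. The summit lay upstream of the outer annotated start in all 4 LSC libraries, at -975 bp in both control libraries and at -892 and -910 bp in the Nup214-HET libraries (negative positions are upstream). Neat1, the scaffold of paraspeckles, lies beside it on chromosome 19 (5824708 to 5845480) and had a peak over 1 end with percentiles of 55.8, 71.0, 44.6 and 17.6. Neither HSC list held a peak at Malat1 or Neat1.

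Of the genes of X inactivation, Jpx and Ftx were in the control LSC set and in no other. Both are transcribed beside Xist, the RNA that coats and silences an X chromosome, and are known as its activators. Jpx (chromosome X, 103493558 to 103506425, plus strand), whose promoter is printed above, had percentiles of 83.8 and 74.8, with summits at -75 and -116 bp from the start. Ftx (chromosome X, 103560910 to 103623754, minus strand) had percentiles of 92.8 and 79.7 at summits 1291 and 1250 bp inside the start, and a separate weaker peak in Nup214-HET library 1 at a percentile of 19.1. Xist itself had 2 peaks in control LSC library 1 and none in the other 5 libraries.

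Of 5 isolated snoRNA hosts on the lists, Snhg5 and Snhg17 were in the control LSC set. Snhg5 (chromosome 9, 88521052 to 88522897, minus strand) had percentiles of 91.1, 76.1, 17.7 and 44.8 in the 4 LSC libraries and no HSC peak, with summits at -198, -136, -220 and -591 bp from the start. Snhg17 (chromosome 2, 158353700 to 158361522) was called in the control LSC libraries alone, at percentiles of 67.8 and 1.39, the latter near the foot of its list. Snhg11 had a peak in control LSC library 1 only, and Snhg20 and Snhg7os had none. Dancr, on no list but printed above, lies at 74093060 to 74094337 of chromosome 5 and had percentiles of 95 and 69.2 in control LSCs and no other call.

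Among genes with a role in blood or leukemia, Lncpint and Trp53cor1 were in the control LSC set. Lncpint, an RNA induced by p53, spans 31093563 to 31218474 of chromosome 6, 134573 bp from Klf14. Its percentiles were 95.6, 74.5, 56.6 and 71.7, and the peaks of both control libraries and Nup214-HET library 1 overlapped, between 31126181 and 31126940, while that of Nup214-HET library 2 lay elsewhere in the gene, at 31095695 to 31096050. Trp53cor1 (lincRNA-p21), another p53-induced RNA, lies 11853 bp from Cdkn1a on chromosome 17 and had percentiles of 52.7 and 42.7 in control LSCs, but the 2 peaks stood at opposite ends of the gene. Pvt1, near Myc, had 2 peaks and Morrbid, which regulates Bcl2l11 in myeloid cells, had 3 in control LSC library 1, with none elsewhere. Ptgs2os2 had 1 peak in that library. Mir17hg and Mir99ahg had none in any list.

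In all, the lists held 56 names, of which 53 were in the table as lncRNA genes and 27 were isolated from coding genes. The control LSC set took 8 of these 27, the Nup214-HET set 4 (Malat1, Neat1, Snhg5 and Lncpint) and the HSC set none. In the same order, the sets held 4.72%, 0.95% and 0.260% of all the isolated lncRNA genes. Over all RefSeq genes the same rule called 15.7%, 4.97% and 0.254%. Whether the listed genes differ from these shares was not tested. With an HSC share of 0.260%, a count of none among 27 genes carries no information. The 2 isolated imprinted genes, H19 and Mirg, had no peak in any library, and of the 10 isolated microRNA hosts none was in a set. Mir1a-1hg had 1 peak in control LSC library 1 and Mir100hg 1 in Nup214-HET library 1.

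The genes with the strongest peaks in both LSC groups were mostly called in HSCs too. Gm36264 (chromosome 13, 9001952 to 9076374, 5836 bp from Gtpbp4) had folds of 51.8, 44.4, 27.1, 26.6, 21.4 and 16.6, at percentiles from 94.3 to 100, and its peak started at 9011686 or 9011688 in all 6 libraries. Gm33838 (chromosome 9, 35285514 to 35307723) had folds of 48.3, 46.5, 26.5, 26.3, 39.1 and 36.6, with a peak that began between 35305220 and 35305224 in every list. Boundaries that agree to within a few bases across libraries were not the rule. Over the genes whose strongest peaks overlapped, starts differed by a median of 69.5 bp between the control LSC libraries, 82 bp between the Nup214-HET libraries and 10 bp between the HSC libraries.

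Gm36876 (chromosome 11, 29956 bp from Axin2), 2700054A10Rik (chromosome 17), A530065N20Rik (chromosome 13, 57736 bp from Gas1) and LOC108168760 (chromosome 2, 6348 bp from Acvr1) were likewise called in all 6 libraries. Their percentiles in the 4 LSC libraries ran from 89.8 for LOC108168760 in control LSC library 2 to 99.8 for Gm36876 in control LSC library 1, and those in HSCs from 74.0 to 94.5. With Gm36264, Gm33838, Gm40034, Gm41530 and A930011G23Rik they make up the 9 genes of all 3 sets. Peaks of all 6 lists came together in 109 regions of the chromosomes, and without these regions 8 of the 9 genes left the HSC set, Gm40034 remaining through another peak. A930011G23Rik held 6, 3, 1, 2, 1 and 2 peaks in a span of 431.8 kb.

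Other strong genes of both LSC sets differed in HSCs. D130051D11Rik (chromosome 15, 85634596 to 85640524, plus strand, promoter printed above) had percentiles of 96.7, 98.5, 95.4 and 89.7 in LSCs, with summits 35 to 124 bp inside the start, and 51.9 in HSC library 1. 1700096K18Rik (chromosome 5, 25530018 to 25531466, plus strand, promoter printed above) had 99.4, 99.4, 93.1 and 75.9, with summits at -261 to -386 bp from the start, and no HSC peak. Gm39793, Gm6410 and Gm26901 completed the 12 leading genes of this class with mean percentiles of 92.6, 85.0 and 85.0. Gm26901 had its peaks at the start and no HSC call, while Gm39793 was called in HSC library 2 and Gm6410 in HSC library 1.

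The full Nup214-HET set, apart from the genes already named and those described below, comprised Gm32039, Gm34405, Platr7, Gm29933, Gm33682, 5033406O09Rik, 9330111N05Rik, Gm49249, Gm41427, Gm41485, Gm1604a, Gm17382, Gm30509, AY036118, Gm46606, Gm30188, Gm36913, Gm13373, 5031425F14Rik, Gm31619, Gm32287, Gm33033, Gm30382, B330016D10Rik, Gm35223, Gm43699, Gm24105, Gm20619, 2310040G24Rik, Gm38883, Gm38882, 1700012D14Rik, Gm33560, Gm31718, A630001O12Rik, Gm51701 and 4933407K13Rik. B330016D10Rik, 7518 bp from Spen on chromosome 4 and with its promoter printed above, had percentiles of 77.1, 68.8, 56.3 and 1.47 in the 4 LSC libraries. AY036118 on chromosome 17 had the weakest folds, 2.17, 2.40, 1.96, 1.96 and 2.28 in the first 5 libraries, all at percentiles of at most 0.191. Of the 62 genes, 26 had a peak at an end in both libraries and 33 inside the span alone in both.

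**Figure D5:**
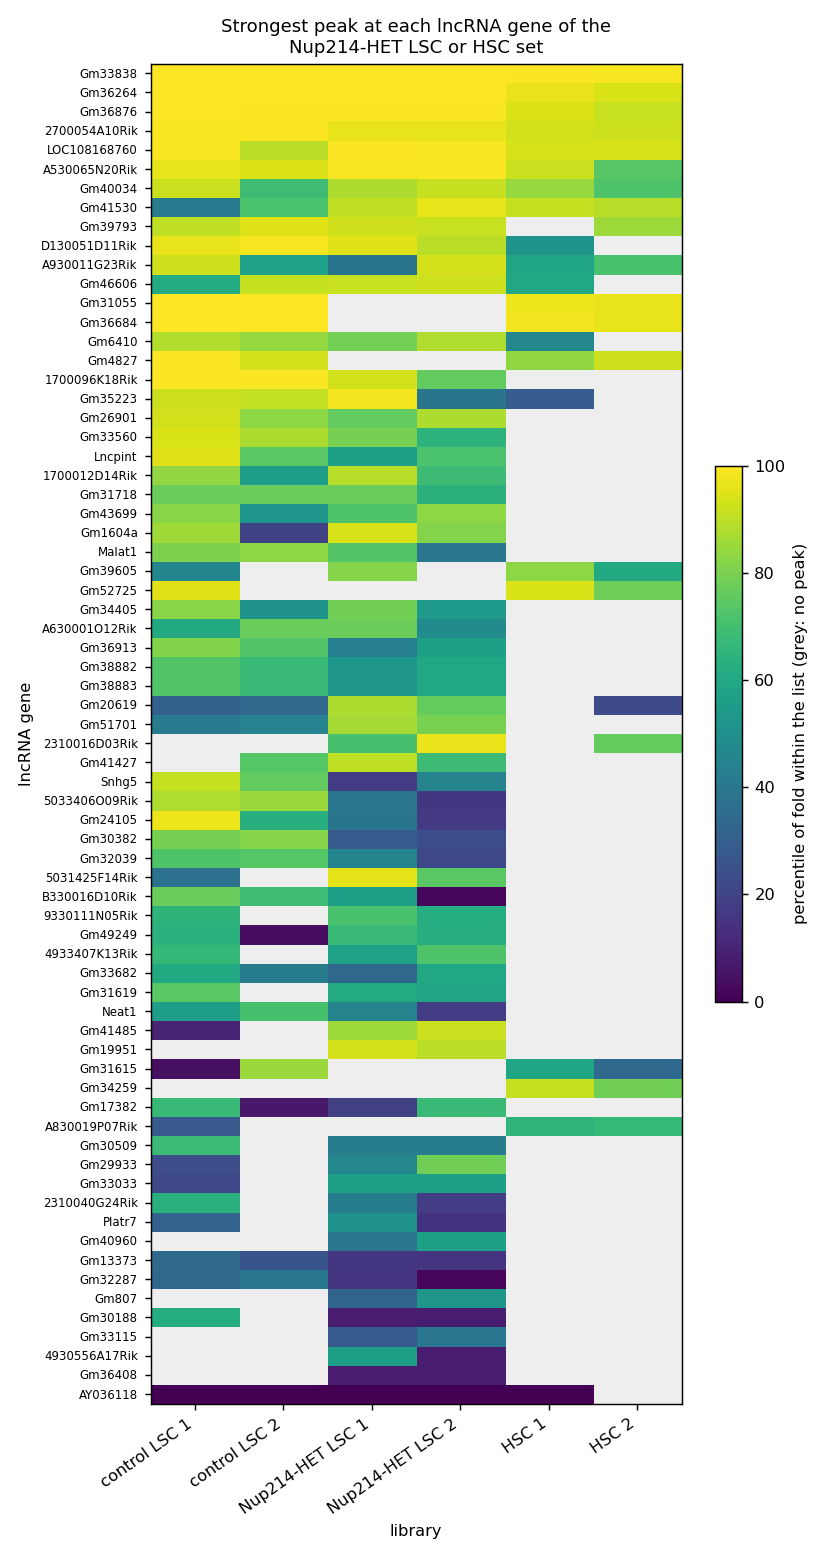
Percentile of the authors' fold enrichment, within its own list, of the strongest peak at each lncRNA gene of the Nup214-HET LSC or HSC set (rows) in each library (columns), with grey for no peak. The genes at the top, such as Gm33838 and Gm36264, are above 94 in every library, and most of the lower rows are grey in both HSC columns.

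Some genes of the Nup214-HET set lay in clusters with each other or with genes of the control LSC set. On chromosome 2, Gm31619, Gm32287 and Gm33033 lie between 167571285 and 167877631 on both sides of Cebpb, the gene of a myeloid transcription factor. Gm32287, 78676 bp from Cebpb, was in both LSC sets, at percentiles of 33.5, 39.1, 14.9 and 1.52. Gm31619 (74.4, no peak, 61.2 and 58.4) and Gm33033 (21.7, no peak, 56.8 and 56.3) lacked a call in control LSC library 2 and in the HSC libraries.

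On chromosome 10, Gm34405 and Platr7, a transcript named for its link to pluripotency, flank Ckap4 and were called in both Nup214-HET libraries, Platr7 without a call in control LSC library 2. On chromosome 12, Gm33628 and Gm33682 lie 34754 and 25595 bp from Yy1, and Gm33682 alone was kept in the Nup214-HET set. On chromosome 5, 2310047D07Rik and Gm24105 overlap each other, 13554 bp from Uspl1 and 16763 bp from Alox5ap, and Gm24105 alone was kept.

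The isolated lncRNA gene with the most peaks was Gm31718, which spans 103.664 kb of chromosome 8 (126804707 to 126908370), 22294 bp from Tomm20. It held 10, 5, 3 and 3 peaks in the LSC libraries and none in HSCs, and A630001O12Rik lies inside it. Gm36287, 43448 bp from Id2 on chromosome 12, held 9, 2, 1 and 0. Over all the isolated lncRNA genes, 242 and 44 held at least 2 peaks in the control LSC libraries, 8 and 9 for Nup214-HET LSCs and 2 in each HSC library. The groups with longer lists had more such genes, and the same count over all RefSeq genes is not given.

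In the Nup214-HET set, 7 genes had no call in either control LSC library. They are 0.107% of the isolated lncRNA genes, near the 0.13% over all RefSeq genes, and 11.3% of their Nup214-HET set, where the share over all RefSeq genes was 2.62%. Gm19951 (chromosome 12, 99643096 to 99647221, 44974 bp from Efcab11) led them with percentiles of 93.7 and 89.8 in the Nup214-HET libraries and overlapping peaks inside the span. 2310016D03Rik, 37167 bp from Sntg2 on the same chromosome, had 70.9 and 97.0 and also 76.2 in HSC library 2. Gm40960 (39.2 and 56.9), Gm807 (32.3 and 52.9) and Gm36408 (7.46 and 7.63) had overlapping but weaker peaks. Those of Gm33115, 39320 bp from Cd83, and 4930556A17Rik lay at separate places in the gene in the 2 libraries. A further 12 genes of the set were called in a single control LSC library, which with these 7 makes the 19 outside the control LSC set.

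The leading genes of the control LSC set with no Nup214-HET call were strong in their lists. Gm31055 (chromosome 4, 153148648 to 153165127, 208094 bp from Ajap1) had folds of 43.6 and 30.9 for control LSCs and 23.0 and 26.7 for HSCs, at percentiles of 99.9, 99.9, 97.3 and 96.8. Its peak began at 153153033 in all 4 of these libraries, and no Nup214-HET peak was called there. Gm36684 (chromosome 17, 13170494 to 13331222) had the same pattern, at 99.8, 99.7, 98.1 and 96.2, with starts at 13305957 or 13305959, and its span encloses 2 coding genes. Gm4827 (chromosome 16, 107155 bp from Cd47), at 99.5, 93.0, 83.4 and 92.3, and Gm31615 (chromosome 17, 52046 bp from Foxn2), at 4.07, 84.9, 58.8 and 34.1, were also called in both control LSC and both HSC libraries and in no Nup214-HET library.

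The other 9 leading genes of this class had no HSC call. Gm30636, 19704 bp from Cd200, had percentiles of 98.2 and 95.4 in the control LSC libraries, Gm30762 had 99.7 and 93.0, and Gm30149, 41539 bp from Chd2, had 98.1 and 92.0. At the start of the gene lay the peaks of Gm33628 (95.8 and 89.2, summit 49 bp inside in both), A930006K02Rik (94.0 and 86.2, summits at -178 and -179 bp, 14909 bp from Ifnar1), 5730405O15Rik (98.7 and 78.7, 25687 bp from Usp9x) and 2310047D07Rik (88.5 and 85.7). Gm41414 (93.3 and 90.3) had its peaks inside the span, and Gm40833 (93.2 and 86.1) at its far end.

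The rest of the control LSC set is named by chromosome, in order of position, with the genes already described. Chromosome 1 had 15 of its 445 genes in the set, namely Gm26901, Gm32566, Gm17767, 1700016L21Rik, Gm41907, Gm34992, Gm32039, Gm19705, Platr22, LOC108167736, Gm41980, Gm51651, Gm9530, 1700029M03Rik and 2900024J01Rik. Chromosome 2 had 28 of its 469 genes in the set, namely Gm31990, Gm13373, Gm39793, Gm34372, Gm13479, Gm13522, 4930555B11Rik, LOC108168760, Gm36857, Gm34483, Gm39896, Gm39918, Gm34484, A730036I17Rik, AU019990, Gm46770, Snhg17, Gm36090, Gm32287, Gm14321, Gm32747, Gm33622, Gm34542, Gm39999, Gm36462, Gm36417, Gm29859 and Gm40034. Chromosome 3 had 15 of its 393 genes in the set, namely Gm46832, Gm31813, Gm42192, Gm33641, Gm33694, Gm20755, Gm30402, Gm553061, Gm35236, Gm32518, Gm40093, Gm40135, Gm46828, Gm34434 and Gm30382. Among these are Snhg17 and Platr22, and the chromosome 2 set includes Gm39918, whose span holds 3 tRNA genes. Chromosome 4 had 13 of its 382 genes in the set, namely Gm8273, Gm34289, Gm34687, Gm35578, Gm40217, Gm31065, Gm40246, Gm32611, Gm52681, Gm32079, Gm13025, B330016D10Rik and Gm31055. Chromosome 5 had 19 of its 388 genes in the set, namely 1700096K18Rik, Gm35223, Gm43699, D5Ertd615e, Dancr, Gm19619, Gm33370, A930011G23Rik, 4930428O21Rik, Gm36223, Gm36386, Gm30657, Gm38726, Gm31068, 4930573C15Rik, LOC108169085, 8430423G03Rik, 2310047D07Rik and Gm24105. Chromosome 6 had 14 of its 348 genes in the set, namely Gm20619, Lncpint, 2210408F21Rik, Gm38794, Gm26008, 4930512J16Rik, Gm33448, Gm36301, Gm38883, Gm38882, Gm34755, Gm36897, Gm31108 and Gm32124. Lncpint, Dancr and B330016D10Rik belong to these 3 chromosomes.

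Chromosome 7 had 11 of its 320 genes in the set, namely Gm42376, Gm35889, Gm30684, Gm32633, Gm30149, Gm42398, Gm39054, Gm21123, 1700012D14Rik, Gm34999 and Gm33560. Chromosome 8 had 14 of its 347 genes in the set, namely Gm6410, 5430421F17Rik, B930018H19Rik, Gm51537, Gm34751, Gm51550, Gm39256, Gm31278, Gm39265, C230057M02Rik, Gm51605, Gm45805, Gm31718 and A630001O12Rik. Chromosome 9 had 16 of its 328 genes in the set, namely 1700019J19Rik, Gm33838, Gm51680, LOC115487176, Gm33699, B930092H01Rik, Gm34264, Gm34974, Snhg5, 9430037G07Rik, Gm26567, Gm39409, Gm40550, Gm30762, Gm19385 and Gm51701. Chromosomes 7 to 9 hold Gm31718, the gene with the most peaks, and Snhg5. Chromosome 10 had 23 of its 380 genes in the set, namely Gm32543, Gm51814, Gm33619, Gm33728, Gm34267, C920009B18Rik, Gm40630, Gm51798, Gm35154, Gm40679, Gm47922, Gm34405, Gm40741, Gm17745, 4930459C07Rik, Gm40747, Gm29685, Gm30624, Gm40770, Gm40773, Ifngas1, Gm33439 and A130077B15Rik. Chromosome 11 had 16 of its 306 genes in the set, namely Gm39575, Gm11998, Gm40816, 5730522E02Rik, Gm35131, Gm12216, Gm11205, 9130204K15Rik, Gm38534, Gm35338, Zfp652os, Gm38959, Gm36876, Gm31724, Gm35170 and Gm39486. Chromosome 12 had 18 of its 334 genes in the set, namely Gm26520, Gm34489, Gm36287, 1700031P21Rik, Gm35239, Gm31512, Gm40441, Gm35041, Gm29709, Gm38543, Gm32296, Gm32806, Gm51955, Gm10433, Gm33628, Gm33682, B930059L03Rik and 5033406O09Rik. Ifngas1 on chromosome 10, an RNA transcribed beside Ifng that regulates this cytokine in T cells, had percentiles of 15.2 and 55.8 in the control libraries and of 84.3 in Nup214-HET library 1.

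Chromosome 13 had 31 of its 443 genes in the set, namely Gm35190, Gm36264, Gm31711, 4930586N03Rik, Gm40833, 2610307P16Rik, Gm40860, Lncbate6, Gm40915, Gm40916, Gm40918, Gm10790, Gm33195, Gm34276, Gm34991, Gm40942, Gm33116, Gm33168, Gm31657, 1700066J03Rik, A530065N20Rik, Gm41011, Gm41027, Lncenc1, Gm41029, Gm41046, Gm31920, Gm15286, Gm15322, Gm15323 and Gm41062. Chromosome 14 had 6 of its 322 genes in the set, namely Zmiz1os1, Gm30392, 1700105F02Rik, Gm35197, D130009I18Rik and 1700044C05Rik. Chromosome 15 had 12 of its 265 genes in the set, namely Gm49249, 4930445E18Rik, Gm33936, Gm41296, Gm34590, Gm41307, Gm41309, Gm41331, Gm34201, D130051D11Rik, 4930578M01Rik and Gm52200. Chromosome 13 had the most genes in the set and chromosome 14 the lowest share of any autosome, 1.86%. Chromosome 16 had 15 of its 219 genes in the set, namely Gm41414, Gm31814, Gm32679, 9030404E10Rik, Gm26562, Gm52237, Gm30636, Gm16619, Gm6936, Gm4827, G730013B05Rik, Gm33971, A930006K02Rik, Gm32130 and A630089N07Rik. Chromosome 17 had 21 of its 240 genes in the set, namely Gm2885, Gm1604a, Gm36684, 2700054A10Rik, Gm41530, Gm17382, 9630028I04Rik, Gm10505, Trp53cor1, Gm36486, Gm36199, 4833427F10Rik, Gm32409, AY036118, Gm46607, Gm41603, A230051N06Rik, Gm30983, Gm46606, Gm35551 and Gm31615. Chromosome 18 had 5 of its 243 genes in the set, namely Gm36315, Gm41696, Gm52329, Gm5095 and 2700046A07Rik. The highest share was that of chromosome 17, at 8.75%. No share by chromosome over all RefSeq genes is given, and overlapping genes can count the same peak, so these extremes are descriptions only. Chromosome 19 had 8 of its 149 genes in the set, namely Malat1, Neat1, Gm36913, 4930554I06Rik, Gm41829, Gm36774, Gm41853 and Mirt1. Chromosome X had 8 of its 178 genes in the set, namely 5730405O15Rik, Gm34661, Gm14636, Jpx, Ftx, 3632454L22Rik, Gm39538 and Gm15201. None of the 30 isolated lncRNA genes on chromosome Y was in the set. Of the 308 genes, 135 (43.8%) had a peak at an end in both libraries and 146 (47.4%) inside the span alone in both.

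The HSC set had 17 genes, 13 of which were in the control LSC set (76.5% of the HSC set and 4.22% of the control LSC set). Over all RefSeq genes these shares were 76.4% and 1.23%. Of the isolated lncRNA genes 0.199% were in both sets, near the 0.194% of all RefSeq genes. Besides the 9 genes of all 3 sets, Gm31055, Gm36684, Gm4827 and Gm31615 were shared with control LSCs. Without HSC library 2 the shared genes numbered 23. In the other direction, 280 of the 308 control LSC genes (90.9%) had no call in either HSC library, a share that was 93.0% over all RefSeq genes. Genes with this pattern were 4.29% of the isolated lncRNA genes and 14.6% of all RefSeq genes. Leaving out the regions called in all 6 libraries kept 9 of the 17, namely Gm40034, Gm52725, Gm31055, Gm39605, Gm4827, Gm34259, Gm36684, Gm31615 and A830019P07Rik, and 4 of the 13 shared genes.

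The remaining 4 genes of the HSC set were in no LSC set. Gm34259 (chromosome 17, 4612379 to 4633520, 360777 bp from Arid1b) was the 1 gene of the set without any LSC call, at percentiles of 91.1 and 78.5 and folds of 12 and 7.87. Gm52725 (chromosome 4, 505056 bp from Epha7) had 94.4 and 78.1 in HSCs and 95.6 in control LSC library 1. Gm39605 (82.9 and 60.7) and A830019P07Rik (65.3 and 66.9) also had a call in control LSC library 1, and Gm39605 in Nup214-HET library 1. In the HSC set 13 of 17 genes had peaks inside the span alone, and the median gene was 64492 bp long, against 15954 bp in the control LSC set.

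Chromosome 17 held 5 of the 17 genes of the HSC set and 240 of the 6529 isolated lncRNA genes. No count by chromosome over all RefSeq genes is given beside it, so the 5 genes cannot be read as a trait of this class. Gm36684, 2700054A10Rik and Gm41530 lie there between 13170494 and 13665688, near Tcp10c and Tcte2. 2700054A10Rik had percentiles of 99.1, 99.4, 96.6, 96.9, 93.3 and 92.4, with the summit 1247 to 1753 bp inside its outer annotated start in all 6 libraries. Gm41530 had percentiles of 41.7, 71.5, 90.4, 96.5, 91.2 and 89.4. These are ranks within lists of unequal length and cannot show whether a level changed or stayed the same.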

How the data were processed

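The libraries were CUT&Tag with an antibody against NUP214, 2 for each of 3 groups taken from the sample titles. Per the submitters' processing notes, FastQC 0.11.5, Bowtie2 2.2.9, MACS2 and ChIPseeker were used with the mm10 build. The sources used here give no version or settings of MACS2, no control sample and no treatment of duplicates. Per the file layout, the authors called peaks in each library separately. For each peak the authors' deposited lists hold a score, a fold enrichment (a linear ratio), a −log10 p, a −log10 q and the summit offset. A fold is the authors' own value and was used only to rank peaks within a list. Read depth is unknown, and the lists differ in length, so counts of called genes were also taken from lists cut to 1 length.

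RefSeq genes (GRCm38.p6) on chromosomes 1 to 19, X and Y were set against the peaks with Python 3.11.15, numpy 2.4.6, pandas 2.3.3 and scipy 1.17.1. A call needed an overlap of at least 1 bp. Strand and promoter sequences came from RefSeq promoter windows of the same assembly. Comparisons between groups used exact permutation of library values, and those between classes of genes exact sign-flip tests over the 6 libraries, all two-sided, with Benjamini-Hochberg adjustment. The step that finds overlaps between peaks and genes was tested on simulated peaks, and the other steps were not. Values in every library are given for up to 12 genes per class (control LSC set with no Nup214-HET call, both LSC sets, HSC set, Nup214-HET set with no control LSC call), those with the highest mean percentile of fold, and for listed lncRNAs in a set. Genes outside this rule that are named with values (Dancr, B330016D10Rik, Mirt1, AY036118, A930011G23Rik, Ifngas1, Gm31718, Gm36287, Gm39605, A830019P07Rik, Gm31615 and those in clusters) were chosen after their values were seen. The genes, lists and tests were chosen with earlier results of these data known.

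Alternatives were other windows (500 bp or 2 kb), a distance of 10 kb, a −log10 q of at least 2, lists cut to 634 peaks, ends or span alone, each library left out, regions called in all 6 libraries left out, genes that enclose a coding gene left out and the replicate number as a block.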

Additional observations from a re-analysis of the deposited data

Results flagged for a closer look

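Peaks on sequences other than chromosomes 1 to 19, X and Y took no part in the comparisons and are given because they are a signal outside the main measurement. The lists held 52 and 42 such peaks in control LSC libraries 1 and 2, 30 and 30 in Nup214-HET LSC libraries 1 and 2, and 50 and 30 in HSC libraries 1 and 2. They are 0.204% and 0.397% of the control LSC lists, 0.547% and 0.637% of the Nup214-HET lists, and 4.57% and 4.52% of the HSC lists.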

How the results depend on the processing

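Of 264 values recomputed under an alternative, 226 kept their direction, their side of 0.05 and, for counts, a size within 1.5 times. Comparisons between groups could not reach 0.05 under any alternative, nor could those between classes with a library left out. For these only the direction could change, and their size was not judged. Cutting lists to 634 peaks took the control LSC minus Nup214-HET difference in the gap to coding genes from -17.6 to -0.222 points. That too was counted as kept. Lists cut to the shortest, 634 peaks, turned the log2 difference in called genes to -0.648 (control LSC minus Nup214-HET), -2.12 (control LSC minus HSC) and -1.47 (Nup214-HET minus HSC), the share of peaks to -0.946 points (control LSC minus Nup214-HET) and the rank difference to 1.85. The sets then held 9 control LSC and 12 Nup214-HET genes, with 5 in both, 3 with no Nup214-HET call and 6 shared by HSCs and control LSCs. Control LSC lists cut to the mean Nup214-HET length, added after the data were seen, gave -0.489 on the log2 scale, 97 genes in the set and 50 with no Nup214-HET call.

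With end windows in place of whole genes, HSCs had the lower share of peaks, by 0.501 points against control LSCs and 0.0988 points against Nup214-HET LSCs. The sets held 135, 26 and 4 genes, with 19 in both LSC sets, 93 with no Nup214-HET call and 3 shared with HSCs. With whole genes in place of ends, the difference from coding genes was -15.0 points (p = 0.031, exact sign-flip permutation test). The same exact sign-flip permutation test gave p = 0.031 for lncRNA genes near coding genes at 500 bp windows (-4.94 points) and for starts against other ends at 2 kb windows (1.03 points), the smallest p that 6 libraries allow. Without the regions called in all 6 libraries the HSC set held 9 genes, 4 shared with control LSCs.

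Leaving out 1 library in turn gave counts of 467 to 1082 in the control LSC set, 226 to 256 in the Nup214-HET set and 47 to 58 in the HSC set, where a single library then decides. Genes in both LSC sets ranged from 44 to 79, those with no Nup214-HET call from 229 to 889 and those shared by HSCs and control LSCs from 13 to 23. The share difference between LSC groups ranged from -0.0386 to 0.600 points. The cause of these changes was not tested beyond what each alternative's construction shows.

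The replicate numbers 1 and 2 occur in every group. Deviations of same-numbered libraries correlated at -0.021, -0.012 and -0.027 over the 1481 called genes. Since 1036 of these genes were called in a single library, the correlations cannot tell whether same-numbered libraries share more than a number. With the replicate number as a block the log2 difference between control LSCs and Nup214-HET LSCs was 1.56 with p = 0.5 (exact sign-flip permutation test over 2 pairs, which cannot go below 0.5), and no call changed. Unknown read depth limits every count of called genes.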
